A study of Homo sapiens with 16 samples.

Results

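Collagens, laminins and integrins build the extracellular matrix and tie cells to it. The genes were taken by symbol (COL with digits, A and a digit; LAMA, LAMB or LAMC with a digit; ITGA or ITGB with a digit or letter) from ribosome footprint counts in 4 cancer cell lines. Of 82 such genes in the reference annotation, 80 could be named in the files, among 15020 genes named in all. They comprised 42 of 44 collagen genes, 12 of 12 laminin genes and 26 of 26 integrin genes. COL9A3 and COL23A1 were not named and are not analysed here.

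Integrins are receptors of an alpha and a beta subunit that bind matrix proteins outside the cell and the actin or keratin cytoskeleton inside it. Laminins are trimers of an alpha, a beta and a gamma chain and, with type IV collagen, form the sheets of basement membranes. Collagens are triple helices of 3 chains, some of which form fibrils, some networks and some span the cell membrane. Epithelial tumour cells commonly keep laminin receptors of the hemidesmosome type, while melanoma cells are known for the vitronectin receptor subunit ITGB3.

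The treated groups received rocaglamide A (RocA) at 0.3 or 3 µM, and the control groups the solvent DMSO, each for 30 min. RocA is a plant-derived translation inhibitor known to lock the helicase eIF4A on stretches of RNA rich in purines. NCI-H1650 and NCI-H520 are established human lung cancer lines, and Hs 936.T and A375 established human lines from melanoma; all are labelled wild type for genetic background. Each line gave 2 DMSO libraries and 1 library at each dose, so that for every line the effect of a dose rests on 1 library and the 4 lines served as replicates of a dose. Nothing in the labels says that the DMSO replicates were separate cultures, so p-values measure the spread between these libraries, which may be technical. The fits by dose took all 16 libraries, so their p-values rest on the spread between DMSO duplicates as well as between lines. Footprints left by RNase I on pelleted ribosomes were sequenced after depletion of ribosomal RNA. A footprint count follows both the amount of an mRNA and the ribosomes on it, and these cannot be told apart without RNA-seq, nor can fewer cells of a kind and less RNA per cell.

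Values are CPM, the footprint counts of named genes scaled to a common library total with factors from the trimmed mean of M-values (TMM), so a change is measured against all genes read in that library. Named-gene totals were 832549 to 4820159 counts per DMSO library and 72120 to 852477 per RocA library. A single count was worth 10.9 CPM in NCI-H1650 at 3 µM, against 0.191 CPM in A375 DMSO replicate 2, so low values with RocA are coarse. Libraries titled as NCI-H520 DMSO replicate 2 and NCI-H520 at 3 µM carry the cell-line label NCI-H521; they were grouped by title. Epithelial markers (7 named of 8) summed to 15465 and 16546 CPM in NCI-H1650 and to 4499.8 and 4416 CPM in NCI-H520, against 29.1 to 359 CPM in the melanoma DMSO libraries. Markers of pigment cells marked Hs 936.T, at 23746 and 24264 CPM. They summed to 502 and 591 CPM in A375, where SOX10 alone had 433 and 535 CPM, and to 861 and 1969 CPM in NCI-H520. In NCI-H520 they stood at a median of 3.90% (replicate 1) and 8.71% (replicate 2) of the Hs 936.T DMSO level, over 11 genes, against at most 0.655% in the NCI-H1650 and A375 DMSO libraries. With RocA they stood at 0.972% (0.3 µM) and 1.89% (3 µM) in NCI-H520, against at most 0.793% in NCI-H1650 and A375. Squamous markers (4 named of 6) summed to 212 and 223 CPM in NCI-H1650, 2.16 and 1.79 CPM in NCI-H520 and at most 1.72 CPM in the melanoma DMSO libraries.

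Levels under DMSO were compared first. Of the 80 genes, 42 reached 10 CPM in a line or at a dose (16 collagens, 10 laminins and 16 integrins), 38 did not, and 7 of those had 0 counts in all 16 libraries. Of the 45 that passed the filter on low counts over the DMSO libraries, all 45 differed between the 4 lines at an adjusted p under 0.05 (edgeR's quasi-likelihood test with Benjamini-Hochberg adjustment), where 91.7% of all 10283 genes tested did. The filter took the lines as groups, for all genes alike, so a gene could pass through a single line, as COL6A3 did through A375. For such genes a difference between lines was close to fixed beforehand. Since most genes differed between the lines, what follows describes which line held which gene. NCI-H1650 was the highest line for 21 of the 42 genes, A375 for 12, NCI-H520 for 5 and Hs 936.T for 4. The highest line was called over the next one for 16, 12, 4 and 4 of these genes, in the same order of lines. Counts by highest line, here and for the collagens below, were not made over all genes tested. They describe these genes only.

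**Figure D1:**
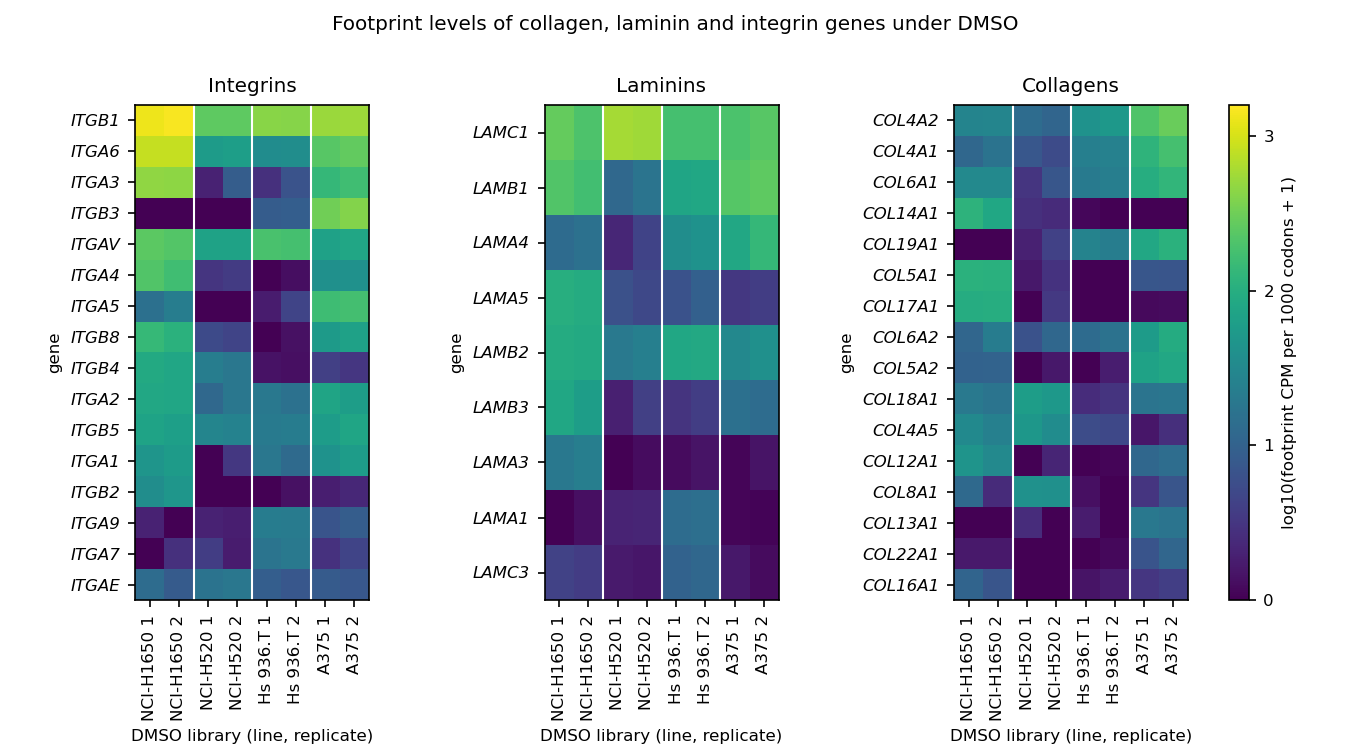
Footprint levels under DMSO of genes that reached 10 CPM, as log10 of CPM per 1000 codons plus 1 (colour), with 1 column per DMSO library (2 per line) and 1 row per gene, ordered by their highest library. NCI-H1650 held most of the highest integrin levels, led by ITGB1 at 1410 CPM per 1000 codons. ITGB3 reached 363 CPM per 1000 codons in A375, and LAMC1 was highest in NCI-H520, at 571.

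Among integrins, ITGB1, the beta subunit shared by the most heterodimers, was the most read per codon in every line. It had 1050.0 and 1175 CPM in NCI-H1650, 411 and 419 CPM in A375, 340.0 and 329 CPM in Hs 936.T, and 202 and 198 CPM in NCI-H520. No 2 lines overlapped, and each step of that order was called, the smallest being A375 over Hs 936.T (adjusted p = 0.0031, edgeR's quasi-likelihood test with Benjamini-Hochberg adjustment), which was not called without Hs 936.T DMSO replicate 2 (-0.25 for Hs 936.T minus A375, log2). ITGB1 lies on chromosome 10 from 32900392 to 32958209 on the minus strand (GRCh38).

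The laminin receptor subunits ITGA6, ITGA3 and ITGB4 were highest in NCI-H1650. ITGA6, which pairs with ITGB1 or ITGB4, had 875 and 878 CPM in NCI-H1650, 60.4 and 64.4 CPM in NCI-H520, 36.8 and 37.9 CPM in Hs 936.T, and 245 and 283 CPM in A375. All lines were apart, and the difference of NCI-H1650 over NCI-H520 was 3.75 ± 0.13 (log2, SE). ITGA3, the alpha subunit of another laminin receptor, had 482 and 471 CPM in NCI-H1650 and 139.6 and 169.6 CPM in A375, but at most 8.05 CPM in the libraries of NCI-H520 and Hs 936.T. ITGB4, the hemidesmosome subunit that reaches keratin filaments, had 156 and 141 CPM in NCI-H1650, 38.8 and 31.3 CPM in NCI-H520, 0.788 and 0.606 CPM in Hs 936.T, and 5.37 and 4.01 CPM in A375. It was thus read mainly in the lung lines, by 5.22 ± 0.23 (log2, SE) over the melanoma lines. Per 1000 codons, a scale on which genes can be set side by side, ITGA6 stood at 824 CPM in NCI-H1650 and ITGB4 at 82.6 CPM.

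Subunits best known from leukocytes were also highest there. ITGA4, a fibronectin and VCAM1 receptor subunit, had 216 and 170.4 CPM in NCI-H1650, 2.16 and 2.68 CPM in NCI-H520, 0 and 0.303 CPM in Hs 936.T, and 40.4 and 41.8 CPM in A375. ITGB2, the leukocyte beta subunit, had 27.1 and 36.2 CPM in NCI-H1650 and under 1 CPM in every other DMSO library; 0 counts in NCI-H520 make it at least 21.5-fold higher in NCI-H1650, from a floor of 3 counts over the group. Its usual partners ITGAL, ITGAM, ITGAX and ITGAD had 0, 2, 18 and 0 counts over all 16 libraries. The blood cell markers (4 of 4 named) summed to 5.2 and 12.8 CPM in NCI-H1650, against at most 0.894 CPM in the other DMSO libraries; their part in this was not tested. The collagen receptor subunits ITGA1 and ITGA2 did not separate the leading lines. ITGA1 had 54.1 and 65.0 CPM in NCI-H1650 and 48.3 and 66.8 CPM in A375 (adjusted p = 0.83, edgeR's quasi-likelihood test with Benjamini-Hochberg adjustment).

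ITGB3 and ITGA5, subunits of receptors that bind RGD motifs, were highest in A375. ITGB3, the vitronectin and fibrinogen receptor subunit, had 0 counts in all 4 lung DMSO libraries, 5.78 and 6.37 CPM in Hs 936.T, and 251 and 314 CPM in A375. From the floor of 3 counts, the pooled lung lines were at least 211-fold lower than the pooled melanoma lines. A375 held 2443 of the 2486 melanoma counts. Against Hs 936.T alone (43 counts), the bounds were only 3.83-fold for NCI-H1650 and 4.13-fold for NCI-H520. Hs 936.T was lower than A375 by -5.51 ± 0.17 (log2, SE). The coding exons of ITGB3 overlap those of another annotated gene on the same strand over 2266 bases, so its counts are uncertain. ITGA5, the fibronectin receptor subunit, had 14.6 and 22.4 CPM in NCI-H1650, 0 and 0 CPM in NCI-H520, 0.788 and 3.64 CPM in Hs 936.T, and 167 and 181 CPM in A375.

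ITGAV, which pairs with several beta subunits, had 255 and 231 CPM in NCI-H1650, 72.3 and 70.7 CPM in NCI-H520, 199 and 188 CPM in Hs 936.T, and 69.2 and 81.3 CPM in A375. The 2 higher lines did not differ beyond their spread (adjusted p = 0.062), nor did the 2 lower ones (adjusted p = 0.60, both by edgeR's quasi-likelihood test with Benjamini-Hochberg adjustment). ITGB8, a beta subunit known for activating latent TGF-beta, had 106 and 84.1 CPM in NCI-H1650, 41.1 and 50.9 CPM in A375, and at most 3.24 CPM elsewhere. ITGB5 lay between 15.8 and 59.7 CPM in all 8 libraries.

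Hs 936.T led for ITGA7 and ITGA9. ITGA7, a laminin receptor subunit best known from muscle, had 18.9 and 21.8 CPM in Hs 936.T and at most 4.20 CPM in the other DMSO libraries. ITGA9, a tenascin receptor subunit, had 21.8 and 20.9 CPM in Hs 936.T against 6.0 and 8.01 CPM in A375, a difference of 1.59 ± 0.24 (log2, SE). ITGAE, the alpha subunit of the receptor for E-cadherin on lymphocytes in epithelia, was low throughout, between 7.44 and 20.6 CPM, and no neighbouring lines in its order were called apart; its difference over all 4 lines was not called without NCI-H520 DMSO replicate 2 (adjusted p = 0.075, edgeR's quasi-likelihood test with Benjamini-Hochberg adjustment). It was named from 1 entry with a support of 9.15, near the minimum of 8 (natural log). ITGA1 (1 entry) and ITGAV (3 entries) had the same support.

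Different lines led for different laminin chains. LAMC1, the common gamma chain, was the most read laminin chain in 3 of the 4 lines per codon and was highest in NCI-H520, with 929 and 897 CPM, against 438 and 323 CPM in NCI-H1650, 289.8 and 290.4 CPM in Hs 936.T, and 317 and 375 CPM in A375. The beta chain LAMB1 went the other way in NCI-H520, with 19.4 and 28.6 CPM, against 375 and 305 CPM in NCI-H1650, 134 and 139.8 CPM in Hs 936.T and 397 and 447 CPM in A375. Per 1000 codons, NCI-H520 had 571 CPM of LAMC1, 20.8 CPM of LAMB2 and 13.5 CPM of LAMB1, and at most 4.57 CPM of any alpha chain. In A375 the same scale gave 216 CPM of LAMC1, 237 CPM of LAMB1 and 107 CPM of the alpha chain LAMA4.

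LAMA3 and LAMB3, an alpha and a beta chain of the hemidesmosome laminin, were highest in NCI-H1650. LAMA3 had 59.3 and 73.5 CPM there and at most 1.53 CPM in every other DMSO library. LAMB3 had 92.6 and 69.2 CPM in NCI-H1650, against 16.4 and 14.7 CPM in A375 and at most 3.58 CPM in NCI-H520 and Hs 936.T. NCI-H1650 did not overlap any other line for LAMA3 and LAMB3. It was also the line with the squamous markers, at 212 and 223 CPM, and their part in its levels of LAMA3, LAMB3, ITGB4 and COL17A1 was not tested. On the scale per 1000 codons LAMB3 stood at 69.6 CPM in NCI-H1650. LAMA5, the alpha chain of most adult epithelial basement membranes, was likewise highest in NCI-H1650, with 370.4 and 337 CPM against 8.53 to 31.5 CPM in the other lines.

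Mesenchymal and other chains were read in the melanoma lines. LAMA4, the alpha chain of vessels and mesenchyme, had 65.9 and 74.9 CPM in Hs 936.T and 147 and 241 CPM in A375, against 21.9 and 26.6 CPM in NCI-H1650 and 2.16 and 6.26 CPM in NCI-H520. LAMA1, the alpha chain of the early embryo, had 38.6 and 41.5 CPM in Hs 936.T, against 0.316 and 0.191 CPM in A375, 168 times as much by counts (95% counting interval 46.1 to 1394, on 2 counts in A375). LAMC3 had 14.4 and 16.7 CPM in Hs 936.T and at most 5.2 CPM elsewhere. In NCI-H520, LAMA1 stood at 8.07% and 8.93% of the Hs 936.T level (3 and 4 counts), and ITGA9 at 5.05% and 4.19% (1 count each). ITGA7 stood at 15.9% and 4.39% (3 and 1 counts) and LAMC3 at 6.93% and 5.75% (1 count each). Shares on so few counts are coarse. The pigment markers stood at 3.90% and 8.71%, and the part of those reads in the NCI-H520 values was not tested. LAMB2 was near equal in NCI-H1650 (162 and 154 CPM) and Hs 936.T (143 and 153 CPM; adjusted p = 1.0, edgeR's quasi-likelihood test with Benjamini-Hochberg adjustment).

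A375 was the highest line for 8 of the 16 collagens that reached 10 CPM, NCI-H1650 for 5 and NCI-H520 for 3. COL4A1 and COL4A2, the partner chains of the common type IV network, lie head to head on chromosome 13. COL4A2 had 354 and 502 CPM in A375, 71.7 and 84.9 CPM in Hs 936.T, 45.8 and 46.9 CPM in NCI-H1650, and 21.6 and 17.0 CPM in NCI-H520. COL4A1 had 201 and 297 CPM in A375, 37.8 and 40.3 CPM in Hs 936.T, 17.7 and 25.6 CPM in NCI-H1650, and 10.8 and 7.15 CPM in NCI-H520. Both kept the same order of lines. Hs 936.T was lower than A375 by -2.44 ± 0.14 for COL4A2 and by -2.66 ± 0.17 for COL4A1 (log2, SE).

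A375 also led for the type VI chains and the fibrillar chain COL5A2. COL6A1 had 98.3 and 129 CPM in A375, 31.2 and 32.0 CPM in NCI-H1650, 19.4 and 22.7 CPM in Hs 936.T, and 2.16 and 6.26 CPM in NCI-H520. COL6A2 was read at 56.9 and 92.5 CPM in A375 and at most 21.3 CPM elsewhere. The third chain of that type, COL6A3, had only 81 counts over all 16 libraries. COL5A2 had 104 and 120.4 CPM in A375 and 13.5 and 13.8 CPM in NCI-H1650, whereas its usual partner COL5A1 had 11.4 and 11.1 CPM in A375 and 199.8 and 194 CPM in NCI-H1650. The partner chains were therefore led by different lines, each called over the next line. COL19A1, a collagen with interrupted helices, had 93.5 and 126 CPM in A375 and 29.2 and 24.6 CPM in Hs 936.T, but 0 counts in NCI-H1650.

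The lung lines led for COL17A1, COL14A1, COL18A1, COL4A5 and COL8A1, among others. COL17A1, the transmembrane collagen of hemidesmosomes, had 143 and 146 CPM in NCI-H1650 and at most 3.58 CPM in the other DMSO libraries. COL14A1, which binds fibrils, had 208 and 142 CPM in NCI-H1650 and at most 3.24 CPM elsewhere. COL18A1, the basement membrane collagen from which endostatin is cut, was highest in NCI-H520, with 78.7 and 66.2 CPM, against 25.0 and 21.3 CPM in NCI-H1650, at most 2.73 CPM in Hs 936.T and 21.2 and 22.5 CPM in A375. COL4A5 and COL8A1 were also led by NCI-H520, at 80.9 and 59.0 CPM and at 30.2 and 28.6 CPM. The lead of COL4A5 over NCI-H1650 (-0.62 ± 0.23 for NCI-H1650 minus NCI-H520, log2, SE) was no longer called without NCI-H520 DMSO replicate 1 (-0.41), without NCI-H1650 DMSO replicate 2 (-0.45) or with DESeq2 (-0.61).

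Counted over lines, 33 of the 45 genes differed between the lung lines, where 58.8% of all genes tested did; 27 were higher in NCI-H1650 and 6 lower, beside 30.1% and 28.8% of all genes. All 12 integrins called were higher in NCI-H1650, as were 9 of 14 collagens and 6 of 7 laminins. The median over the 45 genes was 2.39 (log2), against 0.01 over all genes tested. It was 2.58 with genes at 0 counts in a line set at their bound and genes with at most 3 counts in both lines left out. Between the melanoma lines, 40 of 45 genes differed (64.6% of all genes), with 8 higher in Hs 936.T and 32 lower (31.5% and 33.0% of all genes). Their median was -2.43 (log2), or -2.40 with the same bounds and omissions, against -0.02 over all genes. Of 17 collagens called, COL4A5 was higher in Hs 936.T and the other 16 were lower. Between the lung and the melanoma lines 34 of 45 were called (60.4% of all genes), 20 higher and 14 lower (28.9% and 31.5%), with a median of 0.11 (log2), against -0.04 over all genes. Since 2 lines stand for each tumour type, these values compare the lines. Of the genes that reached 10 CPM, 28 of 31 calls between the lung lines, 34 of 37 between the melanoma lines and 24 of 32 between lung and melanoma lines held under every alternative. In the last comparison, ITGA3 (0.96 ± 0.39) and COL12A1 (2.46 ± 0.74), both called, turned to -0.12 and -0.23 without NCI-H520 DMSO replicate 2, which holds most of their counts in that line. ITGA3 was also not called with DESeq2 (0.98), without Hs 936.T DMSO replicate 1 (0.63) or without either NCI-H1650 DMSO replicate (0.94 and 0.97).

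The 38 genes below 10 CPM included the main fibrillar chains. COL1A1 had 32 counts, COL1A2 1 count and COL3A1 3 counts over all 16 libraries. COL7A1, the anchoring fibril collagen, had 16 counts, and ITGB6, an epithelial beta subunit, 15. COL10A1, COL11A1, COL6A5, ITGA8, ITGAD, ITGAL and ITGB7 had 0. Among mesenchymal and fibroblast markers (7 named of 8), the sums were 41.5 and 63.5 CPM in NCI-H1650, 274 and 399.8 CPM in NCI-H520, and 2189 to 6222 CPM in the melanoma DMSO libraries.

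The effect of RocA on these genes was then tested across the 4 lines. Summed over each family, integrin footprints were below both DMSO libraries of the same line in 7 of 8 treated libraries, the exception being A375 at 0.3 µM, at 95.1% of its DMSO mean. At 3 µM the integrin sum was 42.9% of the DMSO mean in NCI-H1650 and 80.7% of it in NCI-H520; the melanoma lines Hs 936.T and A375 had 62.7% and 77.0%. The laminin sum at 3 µM was 90.5%, 47.6%, 61.0% and 82.9% of the DMSO mean in the same order of lines, and the collagen sum 56.1%, 36.8%, 57.7% and 90.2%. At 0.3 µM the laminin sum was above both DMSO libraries in NCI-H1650 (111%) and Hs 936.T (110%) and below both in NCI-H520 (53.3%). These sums are descriptions without a test. The pigment markers' share in NCI-H520, 0.972% and 1.89% with RocA against 3.90% and 8.71% with DMSO, moved with the treatment in that line, and its part in the RocA changes of NCI-H520 was not tested.

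**Figure D2:**
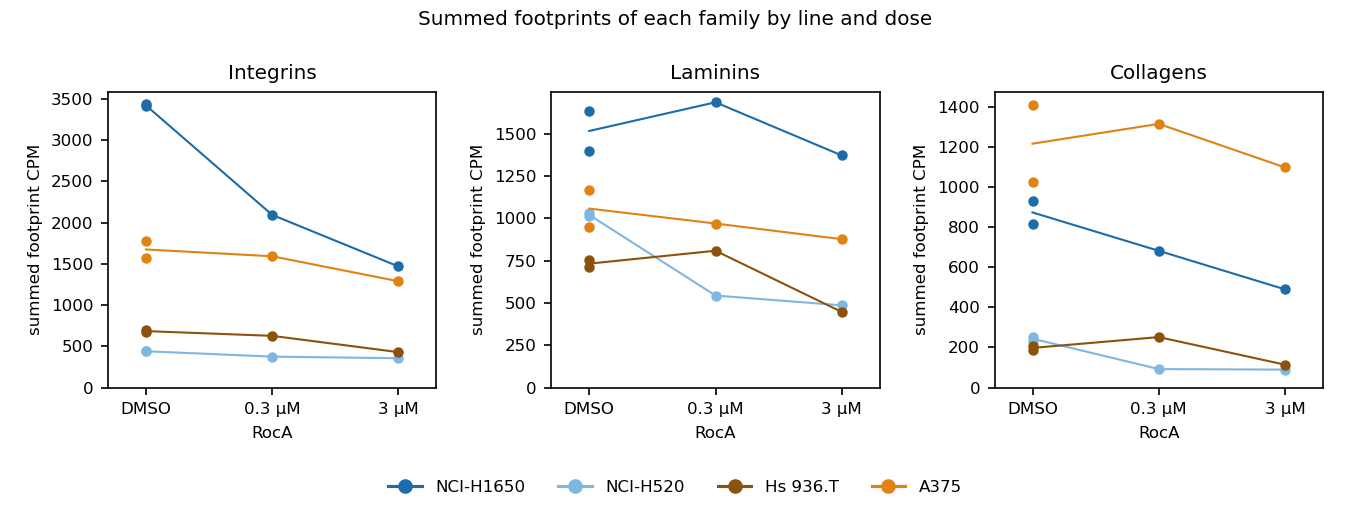
Summed footprint CPM (vertical axis, from 0) of integrin, laminin and collagen genes by RocA dose, with points for libraries and lines through the mean of the 2 DMSO libraries of each cell line. The integrin sum of NCI-H1650 stood at 1468 CPM at 3 µM, against 3411 and 3432 CPM with DMSO, and every integrin sum at 3 µM lay below the DMSO libraries of its line.

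At 0.3 µM, 22 of 35 genes with enough counts were called, where 58.9% of all 8459 genes tested were. Of these, 10 rose and 12 fell, beside 26.9% and 32.0% of all genes, and the median of the 35 was 0.01 (log2), against -0.09 over all genes. These shares are near the background. At 3 µM, 16 of 35 were called, against 56.0% of all genes: 3 rose (24.7% of all genes) and 13 fell (31.3%), with a median of -0.37 against -0.16 over all genes. Both doses share their DMSO libraries, so that their calls are not independent. Of 14 integrins tested, 3 rose and 6 fell at 0.3 µM, and 2 rose and 7 fell at 3 µM. Of 10 laminins, 4 rose and 4 fell at 0.3 µM, and 1 rose and 3 fell at 3 µM. Of 11 collagens, 3 rose and 2 fell at 0.3 µM, and 3 fell at 3 µM.

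**Figure D3:**
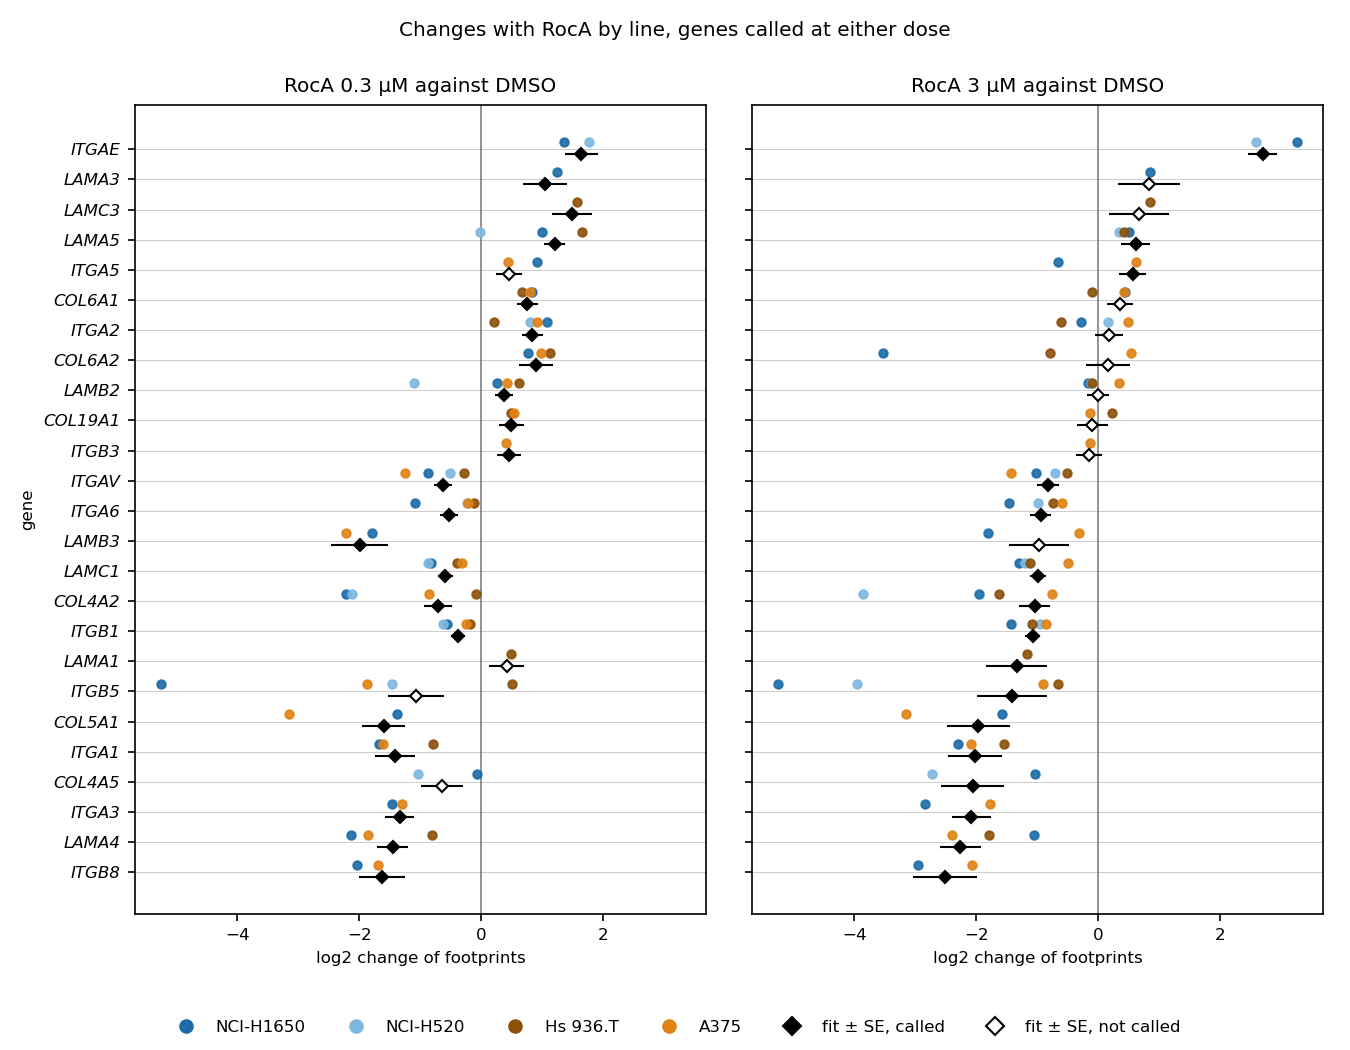
Log2 change of footprints (horizontal axis) with RocA at 0.3 µM (left) and 3 µM (right) against DMSO for genes called at either dose, ordered by the change at 3 µM. Diamonds give the fit over 4 lines with its SE, filled where called, and circles the lines in which the gene had at least 10 CPM with DMSO. ITGAE stands apart at the top (2.70 at 3 µM), and ITGB8 (-2.51), LAMA4 (-2.26) and ITGA3 (-2.08) lie at the bottom.

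ITGAE had the largest rise. It had 30.8, 69.2, 14.5 and 41.8 CPM at 0.3 µM and 119.6, 124, 51.0 and 49.1 CPM at 3 µM in NCI-H1650, NCI-H520, Hs 936.T and A375, against 7.44 to 20.6 CPM over the 8 DMSO libraries. Each treated library lay above both DMSO libraries of its line. The change was 1.64 ± 0.27 at 0.3 µM and 2.70 ± 0.24 at 3 µM (log2, SE; adjusted p = 1.5e-06 and 1.2e-12, edgeR's quasi-likelihood test with Benjamini-Hochberg adjustment). The step between doses was 1.06 ± 0.28 (log2, SE), a call that ended in 9 of 26 alternatives, among them without Hs 936.T at 0.3 µM (0.78).

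LAMA5 was the other gene called higher at both doses. At 0.3 µM it had 704 CPM in NCI-H1650, against 370.4 and 337 CPM with DMSO, 81.7 CPM in Hs 936.T, against 19.7 and 31.5 CPM, and 28.6 CPM in A375, against 8.53 and 10.5 CPM. In NCI-H520 it had 16.5 CPM, between the DMSO values of 19.4 and 14.3 CPM. At 3 µM it had 500.3 CPM in NCI-H1650, 21.7 CPM in NCI-H520, 34.0 CPM in Hs 936.T and 27.0 CPM in A375, each above both DMSO libraries of its line. The change was 1.20 ± 0.17 at 0.3 µM and 0.61 ± 0.23 at 3 µM (log2, SE; 0.99 at 3 µM with libraries thinned to equal depth), and at 3 µM the call ended without NCI-H1650 at 3 µM (0.68), without line NCI-H1650 (0.73) or without line A375 (0.47).

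ITGB1 fell at both doses. It had 752 and 413 CPM at 0.3 and 3 µM in NCI-H1650, against 1050.0 and 1175 CPM with DMSO; 128 and 102 CPM in NCI-H520, against 202 and 198 CPM; 293 and 158 CPM in Hs 936.T, against 340.0 and 329 CPM; and 350.1 and 228 CPM in A375, against 411 and 419 CPM. Every treated library lay below both DMSO libraries of its line, and 3 µM lay below 0.3 µM in each line. The changes were -0.38 ± 0.11 at 0.3 µM and -1.08 ± 0.13 at 3 µM (log2, SE). Of the 35 genes, ITGB1 and ITGAE were the 2 called between doses (3.24% of all genes were, 0.958% higher and 2.28% lower), ITGB1 by -0.69 ± 0.15 (adjusted p = 0.0043, edgeR's quasi-likelihood test with Benjamini-Hochberg adjustment), not called without line Hs 936.T (-0.61).

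Among alpha subunits, ITGA3 had 172 and 65.3 CPM at 0.3 and 3 µM in NCI-H1650, against 482 and 471 CPM with DMSO, and 61.6 and 44.2 CPM in A375, against 139.6 and 169.6 CPM. ITGA3 thus fell in both lines that read it, by -1.34 ± 0.24 and -2.08 ± 0.32 in the fits (log2, SE). ITGA1 fell by -1.42 ± 0.33 at 0.3 µM and -2.02 ± 0.44 at 3 µM, and ITGAV by -0.63 ± 0.15 and -0.83 ± 0.18 (log2, SE). ITGAV was lower in all 4 lines at both doses, with 132 and 119.6 CPM in NCI-H1650, 49.4 and 43.3 CPM in NCI-H520, 158 and 136 CPM in Hs 936.T and 30.8 and 27.0 CPM in A375. ITGA2, the collagen receptor subunit next to ITGA1 on chromosome 5, instead rose at 0.3 µM, by 0.83 ± 0.17 (log2, SE), with 198 CPM in NCI-H1650, 29.6 CPM in NCI-H520, 22.4 CPM in Hs 936.T and 145 CPM in A375, each above both DMSO libraries of its line. At 3 µM ITGA2 was at 0.18 ± 0.23 (log2, SE) and was not called.

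ITGB8 had 22.0 and 10.9 CPM at 0.3 and 3 µM in NCI-H1650, against 106 and 84.1 CPM with DMSO, and 13.2 and 9.82 CPM in A375, against 41.1 and 50.9 CPM. It fell by -1.63 ± 0.37 and -2.51 ± 0.53 (log2, SE); the lower dose was not called with DESeq2 (-1.16). Each NCI-H1650 value at 3 µM of about 10.9 CPM stands for 1 count. ITGB3 had 374 CPM at 0.3 µM and 255 CPM at 3 µM in A375, against 251 and 314 CPM with DMSO. Its call at 0.3 µM (0.45 ± 0.19, log2, SE) ended in 12 of 23 alternatives, among them without the A375 library at 0.3 µM (0.96). ITGA5 was called higher at 3 µM (0.57 ± 0.22, log2, SE) on A375, with 268 CPM against 167 and 181 CPM with DMSO, and turned to -0.28 without that library and to -0.36 without the line. It was not called with DESeq2 (0.49), without a filter (0.44), after thinning (0.52) or without A375 DMSO replicate 1 (0.51). ITGB4, the hemidesmosome subunit, was at 0.01 ± 0.24 and 0.11 ± 0.29 and was not called at either dose.

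**Figure D4:**
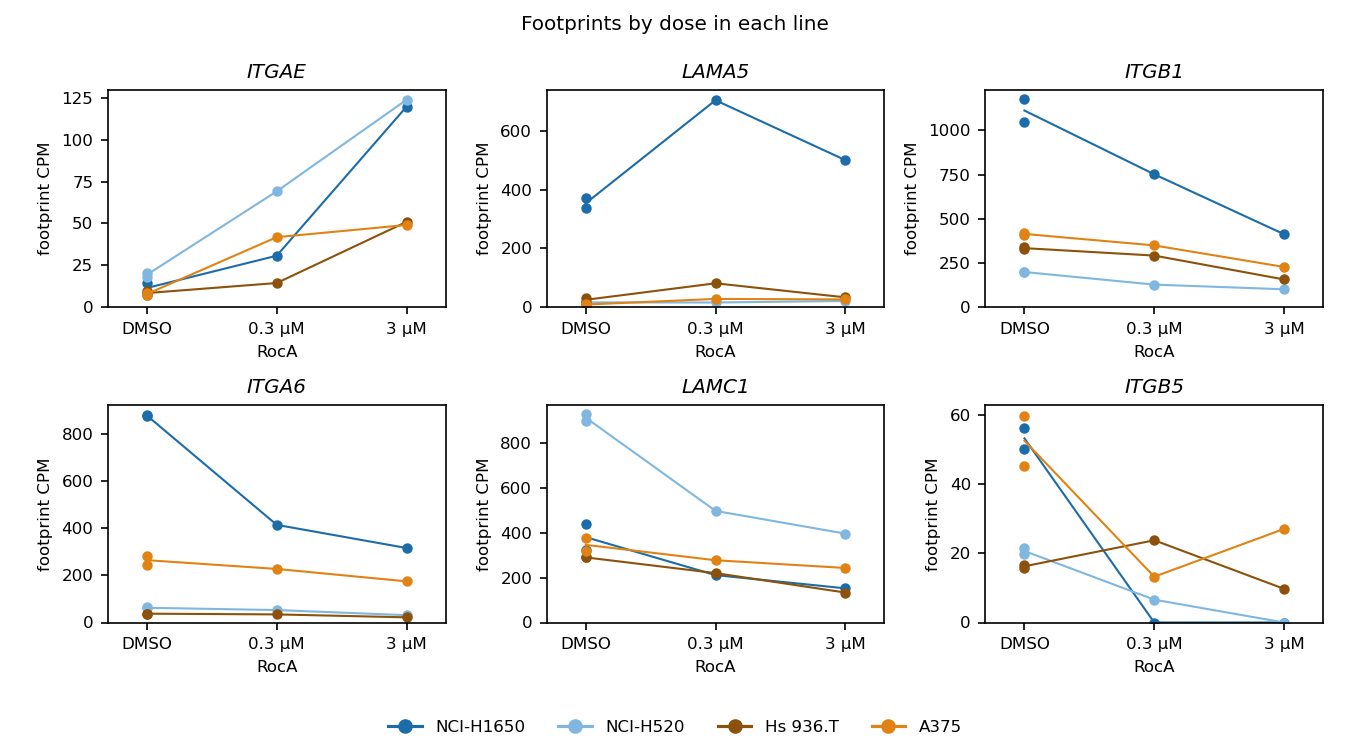
Footprint CPM (vertical axes, from 0, 1 scale per gene) of ITGAE, LAMA5, ITGB1, ITGA6, LAMC1 and ITGB5 by RocA dose in each line; points are libraries, and lines start at the mean of the 2 DMSO libraries. ITGAE rose and ITGB1 and LAMC1 fell in all 4 lines, and ITGB5 had 0 counts at both doses in NCI-H1650 while it stood at 23.7 CPM at 0.3 µM in Hs 936.T.

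The response differed between lines for 2 of the 35 genes, ITGB5 and ITGA6, where 3.31% of all genes did. ITGB5, a vitronectin receptor subunit, had 0 and 0 CPM at 0.3 and 3 µM in NCI-H1650, against 56.2 and 50.1 CPM with DMSO; 6.59 and 0 CPM in NCI-H520, against 21.6 and 19.7 CPM; 23.7 and 9.71 CPM in Hs 936.T, against 15.8 and 16.7 CPM; and 13.2 and 27.0 CPM in A375, against 45.2 and 59.7 CPM. Hs 936.T at 0.3 µM was the 1 treated library above its DMSO libraries. In NCI-H1650, 3 counts would be 13.2 CPM at 0.3 µM and 32.6 CPM at 3 µM. The difference of response had an adjusted p of 0.0049 (edgeR's quasi-likelihood test with Benjamini-Hochberg adjustment; 5.1e-04 to 0.35 over 22 alternatives), not called with libraries thinned to equal depth (0.35), without Hs 936.T at 0.3 µM (0.34) or without NCI-H1650 at 0.3 µM (0.070). Over all lines ITGB5 fell at 3 µM (-1.41 ± 0.57, log2, SE), a call that ended in 13 of 26 alternatives, and the value was -2.24 once A375 at 3 µM was left out. ITGA6 fell most in NCI-H1650, to 413 and 315 CPM at 0.3 and 3 µM, against 875 and 878 CPM with DMSO. The other lines gave 52.7 and 30.9 CPM (NCI-H520), 34.3 and 21.8 CPM (Hs 936.T) and 227 and 174 CPM (A375), each below its DMSO libraries. ITGA6 changed by -0.53 ± 0.15 at 0.3 µM, a call that ended without NCI-H1650 at 0.3 µM (-0.25) or without line NCI-H1650 (-0.22), and by -0.94 ± 0.17 at 3 µM (log2, SE). Its difference of response (adjusted p = 0.042, edgeR's quasi-likelihood test with Benjamini-Hochberg adjustment) was not called in 19 of 22 alternatives, where the adjusted p ran from 0.020 to 0.44.

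Laminin chains differed in the direction of their changes. LAMC1, the gamma chain of most laminins, fell in every line at both doses: 211 and 152 CPM in NCI-H1650 at 0.3 and 3 µM, against 438 and 323 CPM with DMSO; 497 and 396 CPM in NCI-H520, against 929 and 897 CPM; 220.1 and 133 CPM in Hs 936.T, against 289.8 and 290.4 CPM; and 277 and 243 CPM in A375, against 317 and 375 CPM. All 8 treated libraries lay below both DMSO libraries of their line, with changes of -0.59 ± 0.12 and -0.99 ± 0.14 (log2, SE). LAMA4 fell by -1.45 ± 0.26 and -2.26 ± 0.33 (log2, SE), to 50.6 and 34.4 CPM in A375, against 147 and 241 CPM, and to 39.5 and 19.4 CPM in Hs 936.T, against 65.9 and 74.9 CPM. LAMB1, read in all 4 lines, was at 0.01 ± 0.14 and -0.25 ± 0.16 (log2, SE) and was not called.

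LAMB3 fell at 0.3 µM by -1.99 ± 0.47 (log2, SE), with 22.0 CPM in NCI-H1650, against 92.6 and 69.2 CPM with DMSO, and was at -0.97 ± 0.49 at 3 µM, which was not called. LAMA3 was called higher at 0.3 µM (1.05 ± 0.35, log2, SE) on NCI-H1650 alone, with 158 CPM against 59.3 and 73.5 CPM. It turned to -3.66 without that library and was not called with DESeq2 (0.89) or after thinning (0.45). LAMC3 rose at 0.3 µM (1.48 ± 0.33, log2, SE) on Hs 936.T, with 48.8 CPM against 14.4 and 16.7 CPM, and stood at 0.39 without that library. LAMA1 fell at 3 µM (-1.33 ± 0.50, log2, SE), with 17.0 CPM in Hs 936.T against 38.6 and 41.5 CPM; it was not called without that library (-3.98) or with DESeq2 (-1.04). LAMB2 rose at 0.3 µM (0.37 ± 0.15, log2, SE), a call that ended in 12 of 26 alternatives, among them without Hs 936.T at 0.3 µM (0.12).

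Among collagens, COL5A1, a chain of fibrils that regulates their width, fell to 74.8 and 65.3 CPM at 0.3 and 3 µM in NCI-H1650, against 199.8 and 194 CPM with DMSO, and to 0 counts in A375, against 11.4 and 11.1 CPM. Its changes were -1.60 ± 0.35 and -1.97 ± 0.51 (log2, SE), and -5.52 and -5.80 without the NCI-H1650 library of that dose, which leaves few counts. COL4A2 fell by -0.71 ± 0.23 and -1.04 ± 0.25 (log2, SE), with 231 and 250.3 CPM in A375, against 354 and 502 CPM, and 8.80 and 10.9 CPM in NCI-H1650, against 45.8 and 46.9 CPM. Without the A375 library the values were -0.42 at 0.3 µM, not called (nor without line A375, -0.43), and -2.1 at 3 µM; without Hs 936.T at 0.3 µM the value was -1.12. Its partner COL4A1 had 343 and 260.2 CPM in A375, against 201 and 297 CPM with DMSO, and was not called, at 0.38 ± 0.20 and -0.18 ± 0.23 (log2, SE). COL4A5 fell at 3 µM (-2.06 ± 0.52, log2, SE), with 9.28 CPM in NCI-H520 against 80.9 and 59.0 CPM; without that library, which is one of the pair labelled NCI-H521, the value was -1.06 and not called, as it was without the line (-0.94).

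The type VI chains COL6A1 and COL6A2 both rose at 0.3 µM. COL6A1 had 57.2 CPM in NCI-H1650, 34.3 CPM in Hs 936.T and 196 CPM in A375, each above both DMSO libraries, and 6.59 CPM in NCI-H520 against 2.16 and 6.26 CPM, for a change of 0.76 ± 0.18 (log2, SE). COL6A2 changed by 0.90 ± 0.28 (log2, SE), up in the same 3 lines and at 0 counts in NCI-H520; that call ended in 5 of 26 alternatives, among them without Hs 936.T at 0.3 µM (0.71). At 3 µM neither was called, at 0.35 ± 0.21 and 0.16 ± 0.36 (log2, SE). COL19A1 was called higher at 0.3 µM (0.49 ± 0.21, log2, SE) and not in 12 of 26 alternatives, among them without A375 DMSO replicate 1 (0.38). COL12A1, COL17A1, COL18A1 and COL5A2 were called at neither dose.

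Leaving out each library and each line in turn, and under other scalings and filters, 12 of the 22 calls at 0.3 µM held wherever the gene was tested. They were ITGAE, LAMA5, COL6A1 and ITGA2 upward, and COL5A1, ITGA1, ITGA3, ITGAV, ITGB1, LAMA4, LAMB3 and LAMC1 downward. At 3 µM, 11 of 16 held in that way, ITGAE upward and COL4A2, COL5A1, ITGA1, ITGA3, ITGA6, ITGAV, ITGB1, ITGB8, LAMA4 and LAMC1 downward. COL5A1 was not tested without line NCI-H1650 at either dose. Its calls therefore held in 25 alternatives, against 26 for the other genes listed.

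Because RocA is known to act on purine-rich RNA, the longest run of purines (A or G) in the 5′ untranslated region is shown for the 12 genes called at both doses, which share their DMSO libraries. The windows have 30 bases, with the run in capitals, from GENCODE 29 (GRCh38) on the transcript whose coding length named the gene; other transcripts of a gene can differ. The 2 genes that rose come first, then the 10 that fell.
ITGAE, chr17:3801203-3801232, minus strand: cctcctggctGAGGGGAAGctgagtgggcc
LAMA5, chr20:62367246-62367275, minus strand: agctcggggacgcggcccggagccGGGAAG
ITGB8, chr7:20331448-20331477, plus strand: cccaccggctGGAGAGAAAcaaaagctctt
LAMA4, chr6:112254656-112254685, minus strand: ccaaactGAGAGGGGAGGGAAGAccgcagg
ITGA3, chr17:50056240-50056269, plus strand: cacggatcttAGGAAGGGAtccgagagcgc
ITGA1, chr5:52788105-52788134, plus strand: accaagagcgcGAAGGGGcgggcgatgtgg
COL5A1, chr9:134641905-134641934, plus strand: gagttGGAGGAGGAGGAGGAGGAGGcgagg
ITGB1, chr10:32958145-32958174, minus strand: gcgccgggccccggacgccgcgcGGAAAAG
COL4A2, chr13:110307382-110307411, plus strand: ggccgaggaccGAAAGGGGccgcccgagcc
LAMC1, chr1:183023473-183023502, plus strand: ccggggtaggtGAGGGAAGcgcggaggcgg
ITGA6, chr2:172427609-172427638, plus strand: agctgcccgcGAGGGGGAGcggccggacgg
ITGAV, chr2:186590206-186590235, plus strand: cgggctagccGAGAAGAGAGcggccggcaa

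The run of LAMA5 has 6 bases, in a 5′ untranslated region of 67 bases, and that of ITGAE 9 bases, in 99 bases. A run of at least 9 bases occurs in 42.6% of the 7763 tested genes with such a region. Among the genes that fell, COL5A1 had the longest run, 20 bases of repeated GGA, a length reached by 2.40% of tested genes, and LAMA4 had 16 bases, reached by 6.38%. Their 5′ untranslated regions had 383 and 410 bases, against a median of 189 over tested genes. The shares make no allowance for the length of the region. The runs of the other 8 genes that fell had 7 to 10 bases, and the median run of all tested genes was 8. ITGB1, which fell at both doses, had a run of 7 bases in a region of 65 bases, near the lengths of LAMA5. COL17A1, with the longest run of the 33 measured genes (23 bases), was not called, at -0.62 ± 0.35 and -1.22 ± 0.56 (log2, SE). Those values rest on few counts, 22 and 6 at 0.3 and 3 µM in NCI-H1650 and 0 in the other treated libraries. No relation between run length and change was tested.

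The genes that make, surround and anchor these proteins were counted from lists chosen with earlier results of these data known. Of 23 tested genes of collagen maturation and crosslinking, 8 rose and 5 fell at 0.3 µM, and 8 rose and 10 fell at 3 µM. Of all genes tested, 26.9% rose and 32.0% fell at 0.3 µM, and 24.7% rose and 31.3% fell at 3 µM. P3H3, a collagen prolyl hydroxylase gene, rose at 0.3 µM (1.98 ± 0.17, log2, SE), as did MIA3 (1.71 ± 0.14), whose product loads collagen into transport vesicles. SEC24D (-2.68 ± 0.33) and the prolyl hydroxylase gene P3H2 (-1.74 ± 0.32) fell; SEC24D is part of the COPII vesicle coat. At 3 µM, P3H3 (1.86 ± 0.19) and MIA3 (1.47 ± 0.16) rose, and SEC24D (-1.81 ± 0.33) and its coat partner SEC23A (-1.51 ± 0.29) fell.

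Of 25 other matrix glycoprotein genes, 7 rose and 4 fell at 0.3 µM, and 4 rose and 7 fell at 3 µM, beside 26.9% and 32.0% of all genes at 0.3 µM and 24.7% and 31.3% at 3 µM. The heparan sulfate proteoglycan genes of basement membranes, AGRN (1.68 ± 0.14, log2, SE) and HSPG2 (1.64 ± 0.18), rose at 0.3 µM, with mean levels of 339 and 199 CPM against 107 and 71.8 CPM with DMSO. MATN2 (-2.51 ± 0.48) and the laminin-related NTN4 (-1.88 ± 0.43) fell. At 3 µM the tenascin gene TNC rose (1.22 ± 0.21) and so did HSPG2 (0.97 ± 0.24), while NTN4 (-1.68 ± 0.57) and MATN2 (-1.67 ± 0.56) fell. HSPG2 at 0.3 µM, TNC at 3 µM and NTN4 at both doses had the sign of the fit in 3 of 4 lines, the others in all 4.

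Of 35 genes of the integrin adhesion machinery, 12 rose and 13 fell at 0.3 µM, and 10 rose and 16 fell at 3 µM, where 26.9% and 32.0% of all genes did at 0.3 µM and 24.7% and 31.3% at 3 µM. PLEC, whose product ties ITGB4 to keratin, rose at both doses (2.24 ± 0.27 at 0.3 µM and 1.95 ± 0.30 at 3 µM, log2, SE). The actin regulator gene VASP (-2.25 ± 0.33) and the kinase gene SRC (-1.56 ± 0.42) fell at 0.3 µM, and SRC (-2.59 ± 0.58) and TES (-2.1 ± 0.34) at 3 µM. Each of these had the same sign in all 4 lines.

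Of 20 genes of other matrix receptors and proteases, 4 rose and 11 fell at 0.3 µM, and 3 rose and 11 fell at 3 µM, with medians of -0.72 and -0.94 (log2). Over all genes tested, 26.9% rose and 32.0% fell at 0.3 µM and 24.7% rose and 31.3% fell at 3 µM, with medians of -0.09 and -0.16 (log2). The syndecan genes SDC2 (-2.87 ± 0.45, log2, SE) and SDC1 (-2.55 ± 0.18) fell at 0.3 µM; SDC1 averaged 55.7 CPM with RocA and 345 CPM with DMSO. CD44, the hyaluronan receptor gene, rose (1.46 ± 0.10), to 2062 CPM on average at 0.3 µM, against 743 CPM with DMSO, and so did ADAM15 (1.43 ± 0.14). At 3 µM the collagen receptor kinase gene DDR2 (-2.87 ± 0.49) and SDC2 (-3.34 ± 0.61) fell, and MCAM (1.27 ± 0.18) and CD44 (0.98 ± 0.11) rose.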

How the data were processed

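Ribosome footprints were counted in 16 libraries of 4 human cell lines. Per the submitters' processing notes, the authors used CASAVA 1.8, Bowtie2 2.1.0, TopHat2 2.0.9 and hg38. Each deposited file lists 182398 transcripts, with the codons counted and the authors' raw footprint count; their annotation release was not given in the sources used here. The codons counted equal the coding length less 10, and 88482 noncoding entries have none.

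Entries were named by aligning the order of these lengths along each chromosome to GENCODE 29 coding genes (GRCh38; minimum support 8, natural log). This named 15052 of 19909 genes (75.6%), and 15020 were used after shared symbols and repeats with identical counts were dropped; of 1990 decoy genes, 14 (0.704%) were named. The entry with the highest summed count stood for its gene. The genes and lists reported were chosen with earlier results of these data known.

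Tests on the counts used edgeR 4.0.16 in R 4.3.3 (TMM, filterByExpr with a minimum count of 10, robust quasi-likelihood test, 2-sided, Benjamini-Hochberg adjustment over all genes tested); an adjusted p under 0.05 is a call. The 8 DMSO libraries were compared by line, and all 16 by dose with a term for line; a term for each line's response tested whether it differed. DESeq2 1.42.0 was an alternative; Python 3.11.15, NumPy 2.4.6, SciPy 1.17.1, pandas 2.3.3, numba 0.67.0 and matplotlib 3.10.9 served the rest. Log2 changes within a line use a prior count of 2. Folds against a group at 0 are lower bounds that put 3 counts in that group; against 1 to 3 counts a 95% interval of the ratio is given. Bounds and intervals cover counting error only, since fragments without molecular identifiers are not independent molecules. Genes were described in full if they averaged at least 10 CPM in a line or dose; of the other lists, the text names at most 2 largest rises and 2 largest falls per dose among called genes of at least 10 CPM. The values of 2 genes are not reported here, though both enter the counts, sums and medians.

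Chi-square per degree of freedom between DMSO replicates was 1.53 to 2.53. On simulated counts for the 8459 genes of the dose fit, the test called a 2-fold change in 63% (0.3 µM), 47% (3 µM) and 35% (dose step) of cases, and a 4-fold change in 97%, 94% and 81%; a difference of response of 4-fold was called for 56%. The simulation gave every gene the same spread and planted dose changes alike in every line. Its shares therefore need not hold where genes or lines vary more.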

Additional observations from a re-analysis of the deposited data

Results flagged for a closer look

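In 4 cases, the change within 1 line lay far from those of the other 3 lines, by a gap to the nearest line that exceeded Dixon's critical value. Chance flags about 1 in 20 groups, and 70 groups were examined (35 genes at 2 doses). COL6A2 at 0.3 µM was at -2.67 in NCI-H520, where it had 0 counts, and between 0.76 and 1.13 in the other lines. ITGA6 at 0.3 µM was at -1.08 in NCI-H1650 and between -0.24 and -0.12 in the others. LAMA5 at 3 µM was at 1.38 in A375 and between 0.35 and 0.50 in the others, and LAMB2 at 3 µM at 0.34 in A375 and between -0.16 and -0.10 in the others (all log2 changes). The response to RocA differed between lines for ITGB5 (adjusted p = 0.0049) and ITGA6 (adjusted p = 0.042), both by edgeR's quasi-likelihood test with Benjamini-Hochberg adjustment over all genes.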

How the results depend on the processing

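The number of genes called kept within 1.5 times of the reported count for the line comparisons and for both doses against DMSO under every alternative run. It ranged from 43 to 55 (45 reported) for differences between lines, 29 to 36 (33) between the lung lines, 35 to 47 (40) between the melanoma lines, 31 to 41 (34) between lung and melanoma lines, 16 to 25 (22) at 0.3 µM and 14 to 19 (16) at 3 µM. Between doses it was 2, and 1 without the libraries labelled NCI-H521 or with libraries thinned to equal depth, with 0 to 3 when a library or line was left out. For a response that differed between lines it was 2, 3 with the longest entry of each gene, 1 without the libraries labelled NCI-H521 and 0 after thinning. It was 0 to 4 when a library was left out. With RLE scaling, DESeq2 or no filter it was also 2, but each of these kept only 1 of the 2 reported genes. With the DMSO replicate number as a replicate block, which does not pair the lines (correlations of replicate deviations from -0.030 to 0.12), the counts were 45, 35, 40 and 34.

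Directions turned for ITGA3 (-0.12) and COL12A1 (-0.23), lung minus melanoma, without NCI-H520 DMSO replicate 2, the same libraries as without those labelled NCI-H521 in that fit; for LAMA3 at 0.3 µM (-3.66) without NCI-H1650 at 0.3 µM; and for ITGA5 at 3 µM without A375 at 3 µM (-0.28) or without line A375 (-0.36). Over the settings that leave out a library or line, these values ran from -0.23 to 3.38 for COL12A1, -0.12 to 1.44 for ITGA3, -3.66 to 1.20 for LAMA3 and -0.36 to 0.63 for ITGA5. The causes were not tested. For other genes named, alternatives that ended a call are given beside it, in full, as a count or as examples. Depth limits the treated libraries most: 3 counts are 32.6 CPM in NCI-H1650 at 3 µM, against 0.572 CPM in A375 DMSO replicate 2.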
